A study of Mus musculus with 8 samples.

Results

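The genes examined here encode the proteasome, the cell's main machine for degrading proteins. They were taken by symbol, as every gene named Psma to Psmg followed by a number, with the inducible catalytic subunits Psmb8, Psmb9 and Psmb10 left out. The rule found 48 of the 21532 genes in the table. Of these, 14 encode the subunits of the core particle (7 alpha and 7 beta) and 17 encode subunits of the regulatory particle (6 ATPases of the base, 3 other base subunits and 8 lid subunits). The other 17 comprise 3 assembly factors of the regulatory particle, 4 of the core particle, 5 alternative activators, 1 inhibitor, 1 tissue-restricted core subunit, 1 gene with a pseudogene symbol and 2 genes, Psmc3ip and Psme3ip1, that match the symbol rule without encoding a subunit.

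RNA-Seq was performed on the livers of 8 male mice, each a biological replicate, with 4 in the Control group and 4 in the AF1 peptide group. All 8 carried the db/db genotype, a defect of the leptin receptor that causes obesity and diabetes, so no lean liver stood beside them. Treatment began at an age of 8 weeks and lasted 5 weeks, with 2 injections a week behind the eye, each of 5 mg per kg of body weight in either group. AF1 peptide derives from the N-terminal part of estrogen receptor alpha, shortened by deleting stretches of it, and is joined to a cell-entry sequence. The peptide was designed to interact with the insulin receptor substrate IRS1 and to raise its stability. The libraries held 23031880 to 45117528 reads, the lowest in AF1 peptide mouse 2. Mitochondrially encoded genes took 22.4% to 34.3% of reads in Control mice and 20.8% to 37.8% in AF1 peptide mice, with the lowest share in AF1 peptide mouse 1. That mouse had the lowest sum of normalized counts over 8 leukocyte and macrophage markers, 2122 against 4286 to 5173 in the other 7 mice. Within that list Cd3e went the other way, with 34.5 in that mouse against 7.42 to 18.4 in the others. Its hepatocyte marker sum (1773943 against 2168903 to 2654140) and stellate marker sum (2626 against 3269 to 6543) were also the lowest. Its endothelial and biliary sums were not, nor was its mean log2 count over the hepatocyte markers. Within the hepatocyte list Alb, Ttr, Apoa1 and Apob were lowest in that mouse, and Serpina1e, Cps1, Cyp2e1, Pck1 and Asgr1 were highest. No marker of the hepatocyte, leukocyte, endothelial, stellate or biliary lists was at 0 in all mice of a group.

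The proteasome degrades proteins that carry ubiquitin chains. Its core particle is a barrel of stacked rings, alpha subunits outside as a gate and beta subunits inside, where Psmb6, Psmb7 and Psmb5 carry the caspase-like, trypsin-like and chymotrypsin-like activities. The regulatory particle caps the barrel: its base binds and unfolds substrates with ATPases, and its lid removes their ubiquitin. The subunit genes are often transcribed together, under the transcription factors Nfe2l1 and Nfe2l2, which bind antioxidant response elements. In liver, bulk RNA cannot tell fewer cells of a type from less RNA per cell.

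The stretch of 120 bases before the transcription start is shown for 3 genes. Psmb5 and Psmb6 are catalytic subunits whose promoters hold the antioxidant response core. Psmd8 is the member that passed the test below, and its promoter does not hold the core. The other catalytic subunit gene, Psmb7, had no RefSeq promoter here and was not searched. Capitals mark the core, TGACNNNGC, searched on both strands together with the CCAAT box. Sequences are from RefSeq for build GRCm38.p6, written 5′ to 3′ on the strand of the gene.
Psmb5, chr14:54617996-54618115, minus strand: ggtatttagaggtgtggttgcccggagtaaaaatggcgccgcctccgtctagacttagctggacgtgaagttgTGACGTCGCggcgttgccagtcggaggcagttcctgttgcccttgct
Psmb6, chr11:70525237-70525356, plus strand: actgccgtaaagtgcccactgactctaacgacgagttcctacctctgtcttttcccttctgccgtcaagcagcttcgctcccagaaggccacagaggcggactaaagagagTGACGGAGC
Psmd8, chr7:29180674-29180793, minus strand: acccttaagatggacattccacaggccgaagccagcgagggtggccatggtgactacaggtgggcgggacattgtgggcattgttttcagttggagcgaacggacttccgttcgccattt
Within 250 bases before the start, the core occurred in 5 of the 39 members with a RefSeq promoter (Psmb5, Psmb6, Psmc6, Psmd12 and Psmd9), or 12.8%. It occurred in 10.1% of 27025 promoters of all genes and in 11.4% of 14755 promoters of genes measured here. The CCAAT box occurred in 6 of 11 core particle promoters (54.5%) and in 4 of 14 regulatory particle promoters (28.6%). Its share was 34.5% of all promoters and 35.4% of promoters of genes measured here. These matches describe letters and not bound sites.

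Differences in proteasome mRNA between the groups were mostly smaller than the spread between mice. Of the 48 members, 0 were higher and 1, the lid subunit gene Psmd8, was lower in AF1 peptide livers at an unadjusted p under 0.05 in limma, which is 2.08% of members against 6.19% of all 15989 genes tested. Of all genes, 3.16% were higher and 3.03% were lower at that threshold. After Benjamini-Hochberg adjustment over all genes, 0 members passed, and the smallest adjusted p in limma was 0.763, for members and for all genes alike. At the unadjusted threshold edgeR and DESeq2 each gave the same counts, with Psmd8 again the 1 gene. The median log2 difference, AF1 peptide minus Control, was -0.04 over the core particle and -0.03 over the regulatory particle, against -0.01 over all genes tested. The log2 differences ran from -0.24 to 0.02 in the core particle and from -0.28 to 0.12 in the regulatory particle.

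The intervals show how large a change could have been missed. For 25 of the 31 particle subunits the 95% interval of the limma difference lay inside a 1.3-fold change either way, and so it did for 36 of all 48 members. Among all genes tested this share was 24.9%, with lower counts and wider spread. The 6 subunits whose intervals reached past 1.3-fold were Psma1, Psma5 and Psmb7 of the core and Psmd8, Psmd13 and Psmd14 of the lid. In each of these 6 the far end of the interval lay on the side of lower mRNA in AF1 peptide livers. For Psmd13 the other end lay at about 1.3-fold on the side of higher mRNA. Intervals lay inside that bound for all 6 ATPase genes and for the 3 other base subunit genes.

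**Figure D1:**
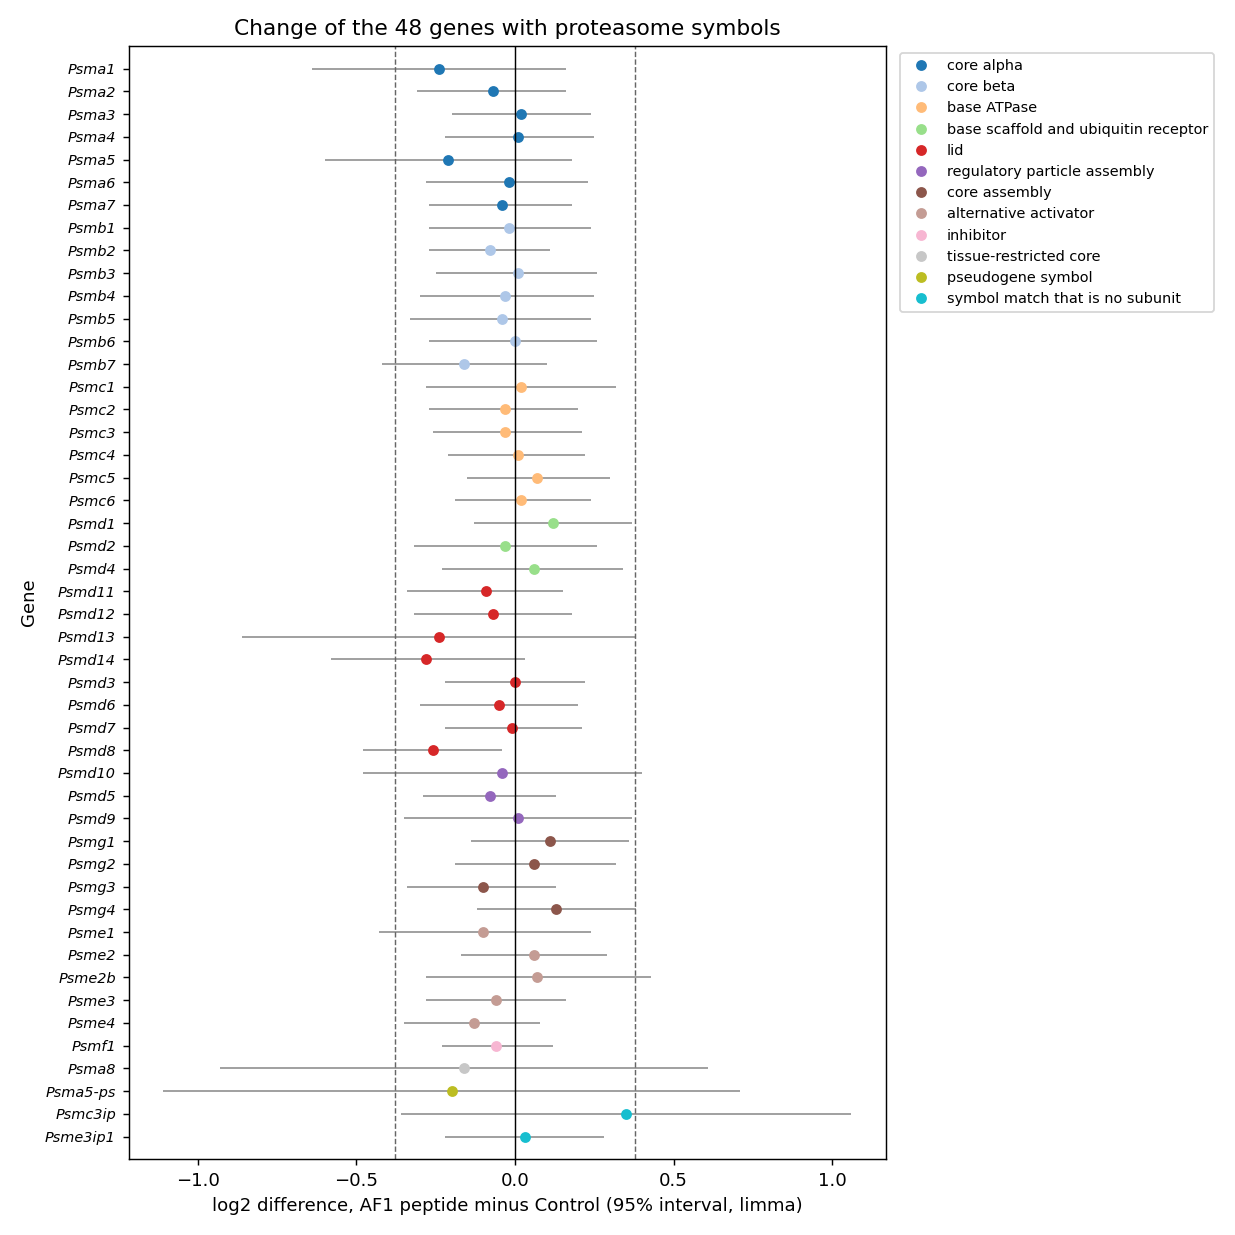
Log2 difference of AF1 peptide minus Control (x axis) for each of the 48 genes (y axis), with points coloured by role, bars giving 95% intervals from limma, and dashed lines at a 1.3-fold change. Most points sit close to 0, and the interval of Psmd8 alone leaves out 0.

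Psmd8 encodes a lid subunit. Its normalized counts were 2733, 3126, 2815 and 2832 in Control mice and 2385, 2093, 2700 and 2458 in AF1 peptide mice. All 4 AF1 peptide mice lay below all 4 Control mice, with AF1 peptide mouse 2 the lowest and Control mouse 2 the highest. Means were 2876 ± 172 and 2409 ± 250.1 (SD, n = 4 each), a log2 difference of -0.26 with a standard error of 0.10, a 95% interval of -0.48 to -0.04 and an adjusted p of 0.763 in limma. The unadjusted limma p was 0.0273, and it became 0.0869 without AF1 peptide mouse 2 and 0.0765 without Control mouse 2, so either mouse decides the call. Psmd8 was the 1 member whose groups did not overlap, and 3.9% of all genes tested had groups that did not overlap. Its transcript shares no stretch of 50 bases with another annotated gene.

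The median log2 difference over the 8 lid genes was -0.08. It moved between -0.025 without Control mouse 2 and -0.138 without Control mouse 4. With all mice 8 of the 8 genes were below 0, against 51.8% of all genes tested. Without Control mouse 2 or without AF1 peptide mouse 3, 5 of the 8 were. As these genes share libraries, this is a description. Psmd14, named after its values were seen, encodes the deubiquitinase that strips ubiquitin from substrates. It had 1436, 1417, 1053 and 1134 normalized counts in Control mice and 1197, 977, 878 and 1097 in AF1 peptide mice. Of the AF1 peptide mice, 2 lay below all Control mice and the other two lay inside the Control range. The log2 difference was -0.28 with a standard error of 0.14 and an adjusted p of 0.763 in limma. Psmd13, another lid subunit gene, was the most variable of the subunits and had the lowest level per length in the regulatory particle, with 692, 834, 515 and 877 normalized counts in Control mice and 1085, 396, 512 and 604 in AF1 peptide mice. AF1 peptide mouse 1 was the highest of the 8 mice and AF1 peptide mouse 2 the lowest, so the treated group spanned the Control group. The log2 difference of Psmd13 was -0.24 with a standard error of 0.28, and it was -0.523 without AF1 peptide mouse 1 (unadjusted limma p of 0.0179) and -0.039 without AF1 peptide mouse 2. Psmd13 overlaps Sirt3 on the opposite strand, and whether strand was used in counting is not given in the sources used here. The other 5 lid genes had log2 differences between -0.09 and 0, with the sign of Psmd3 turning under edgeR and DESeq2.

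Of the 9 base genes, 0 passed the unadjusted threshold, against 6.19% of all genes tested. Psmc5, an ATPase gene with the smallest p of its group, had 2868, 2893, 2855 and 2291 normalized counts in Control mice and 2970, 2895, 2672 and 2875 in AF1 peptide mice. Control mouse 4 stood below the other 7 mice, which lay within 2672 to 2970. The log2 difference was 0.07 with a standard error of 0.10 and an adjusted p of 0.895 in limma. Psmd1, the large scaffold subunit gene of the base, had 3012, 3652, 3541 and 2891 in Control mice and 3097, 3910, 3514 and 3697 in AF1 peptide mice. Of the AF1 peptide mice, 2 exceeded every Control mouse, and the log2 difference of 0.12 (standard error 0.11) had an adjusted p of 0.835 in limma. Psmd4, a ubiquitin receptor gene, had 6275, 5898, 5236 and 4348 in Control mice and 5010, 5514, 5897 and 6047 in AF1 peptide mice. All AF1 peptide values of Psmd4 fell inside the Control range.

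In the core particle, 0 of 14 genes passed the unadjusted threshold that 6.19% of all genes passed. Psma1, an alpha ring subunit gene, had 1612, 1500, 1091 and 1396 normalized counts in Control mice and 1549, 1037, 894 and 1309 in AF1 peptide mice. The groups overlapped, with AF1 peptide mice 2 and 3 below all Control mice and AF1 peptide mouse 1 near the top. Its log2 difference was -0.24 with a standard error of 0.18 and an adjusted p of 0.799 in limma. Psma5, another alpha ring gene, had 1160, 1353, 911 and 1170 in Control mice and 1339, 779.9, 858 and 1047 in AF1 peptide mice. The same AF1 peptide mice, 2 and 3, were the lowest. Of the Psma5 transcript, 49.1% of 50-base stretches also occur in other annotated genes, so its counts are uncertain.

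The catalytic genes Psmb5, Psmb6 and Psmb7 gave differences within the spread of the mice. Psmb5 had 5000, 4639, 4528 and 3609 normalized counts in Control mice and 3637, 4504, 4338 and 4709 in AF1 peptide mice. Each group held 1 low mouse, Control mouse 4 and AF1 peptide mouse 1, and the other values overlapped. Psmb5 shares 54.1% of its 50-base stretches with other annotated genes, among them Psmb5-ps. Psmb6 had 6757, 5814, 5941 and 4990 in Control mice and 5273, 6055, 5558 and 6489 in AF1 peptide mice, all of the latter inside the Control range. Its mean was 5875 ± 723 in Control mice and 5844 ± 538 in AF1 peptide mice (SD, n = 4 each), and the 95% interval of its log2 difference ran from -0.27 to 0.26. Psmb7 had 3371, 3423, 2808 and 2834 in Control mice and 2938, 2939, 2296 and 2961 in AF1 peptide mice. AF1 peptide mouse 3 fell below all Control mice while the other three lay inside their range, and the log2 difference of -0.16 (standard error 0.12) had an adjusted p of 0.796 in limma.

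**Figure D2:**
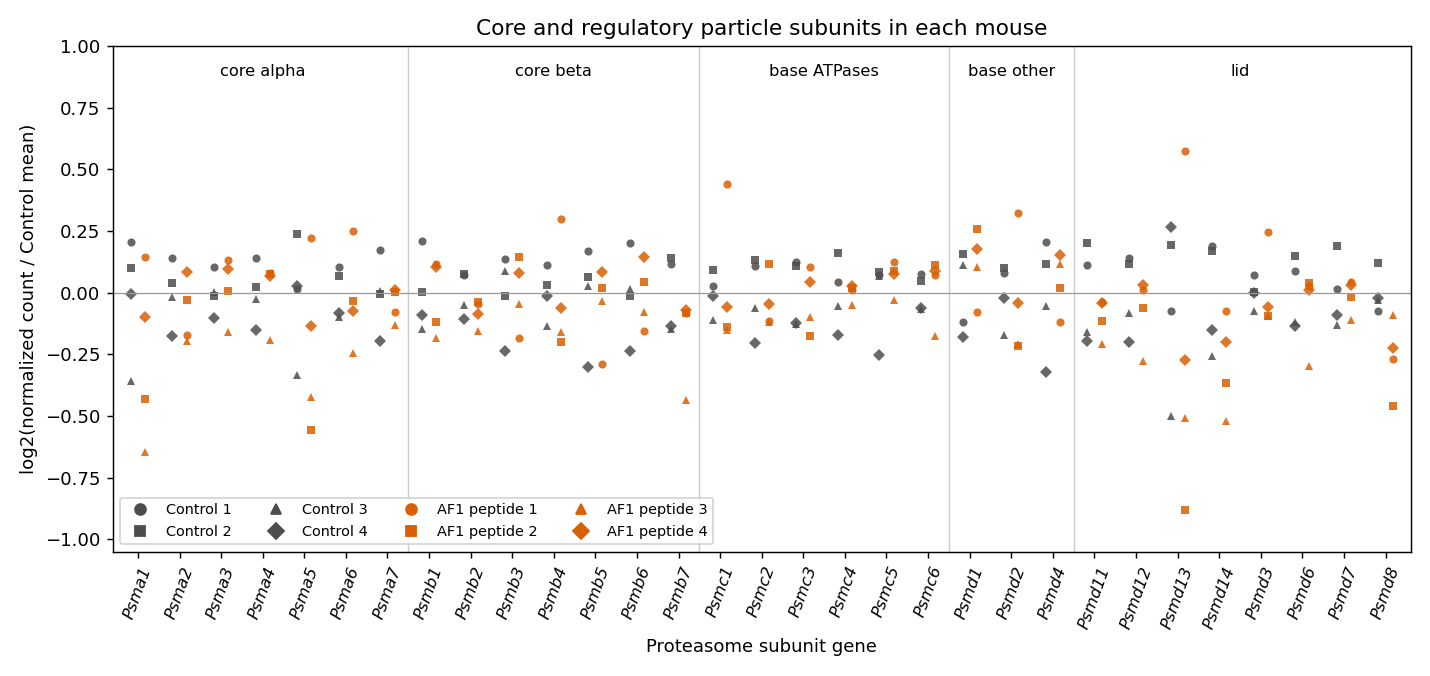
Log2 of each mouse's normalized count over the Control mean (y axis) for the 31 particle subunit genes (x axis), grouped by position in the proteasome, with 1 symbol per mouse. Psmd8 is the column in which every AF1 peptide symbol lies below every Control symbol, and Psmd13 has the widest spread.

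Levels per length placed the subunits in a wide order. Normalized counts were divided by the length of the principal transcript in kilobases, which leaves the order dependent on the transcript chosen, above all for Psma2 and Psma3, whose principal transcripts are long. In Control livers the core particle spanned 7.9-fold, from 7362 ± 906 per kb for Psmb6 to 927 ± 146 per kb for Psma5. The regulatory particle spanned 11.1-fold, from 4084 ± 634 per kb for Psmd4 to 367 ± 82.2 per kb for Psmd13 (SD, n = 4 in each case). Medians were 2596 per kb in the core particle and 1074 per kb in the regulatory particle. Next below Psmb6 in the core particle, Psmb3 (5656 ± 626 per kb) and Psmb5 (4943 ± 659 per kb) differed by less than their summed SDs. Next below Psmd4 in the regulatory particle, Psmc4, Psmc3 and Psmc5 lay between 2072 and 2403 per kb with SDs of 221 to 237. The AF1 peptide livers gave the same lowest and highest gene in both particles.

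**Figure D3:**
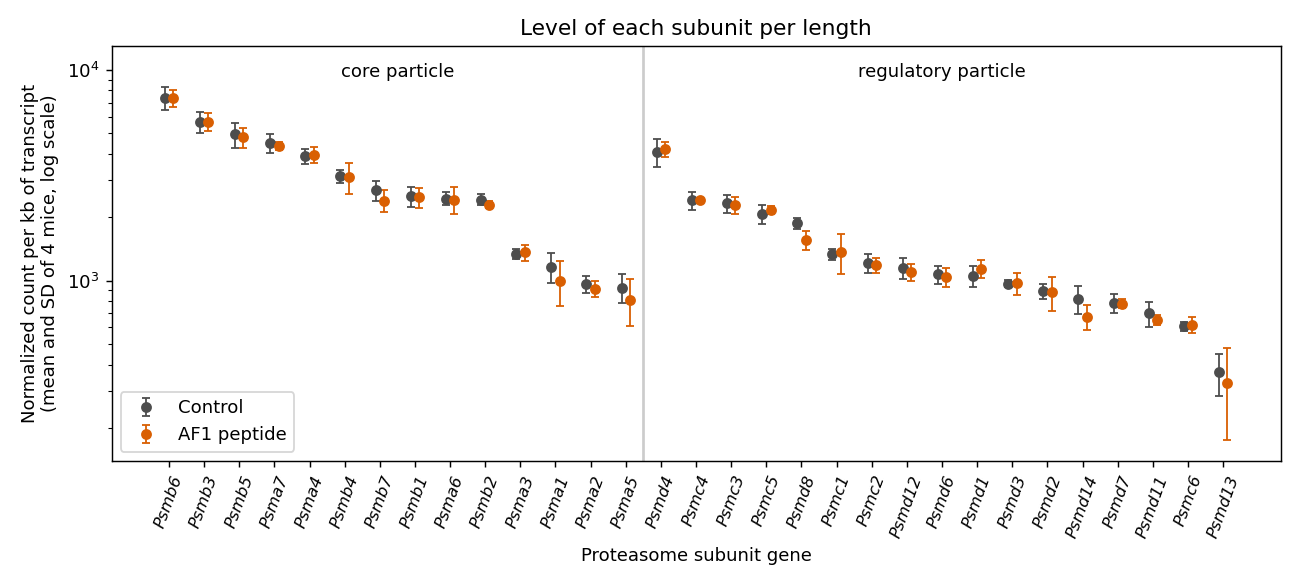
Normalized count per kb of principal transcript (y axis, log scale) for the 31 subunit genes, ordered by the Control level within each particle (x axis), with points for the mean and bars for the SD of 4 mice. The Control and AF1 peptide points nearly coincide along an order that runs from Psmb6 to Psma5 and from Psmd4 to Psmd13.

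The mean levels of the core and the regulatory particle moved together from mouse to mouse. The mean log2 normalized count over the 14 core genes was 11.76, 11.68, 11.54 and 11.50 in Control mice and 11.64, 11.54, 11.41 and 11.64 in AF1 peptide mice. Over the 17 regulatory genes it was 11.14, 11.20, 10.97 and 10.96 in Control mice and 11.15, 10.96, 10.91 and 11.06 in AF1 peptide mice. Control mice 1 and 2 stood high in both particles, AF1 peptide mouse 3 was the lowest in both, and the groups overlapped. The group difference was -0.06 for the core and -0.05 for the regulatory particle, smaller than the SD of 0.10 to 0.12 between mice of a group. Core minus regulatory mean was 0.55 in Control and 0.54 in AF1 peptide mice, a shift of -0.017 against an SD of 0.062 and 0.049. Over the 8 mice, deviations of a gene from its group mean followed those of the other subunits of its particle with a median r of 0.72 in the core and 0.70 in the regulatory particle. As these points share libraries, this is a description. Psmd8 (r = 0.05) and Psmd1 (r = -0.17) had the lowest values, and within the core Psmb3 (r = 0.24) and Psmb5 (r = 0.28) did. The same r over other genes is not given, so what all genes of a library share is not set apart.

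Extremes gathered in few mice. Control mice 1 and 2 held the highest value of 11 and 9 of the 31 subunits, and AF1 peptide mouse 1 of 8 (Psma3, Psma6, Psmb4, Psmc1, Psmc5, Psmd13, Psmd2 and Psmd3). AF1 peptide mouse 3 held the lowest value of 15 subunits, Control mouse 4 of 9 and AF1 peptide mouse 2 of 6. The median coefficient of variation of the subunits was 10.4% in Control and 9.72% in AF1 peptide mice, against 13.3% and 18.1% over all genes tested, which include genes of much lower counts. Leaving out AF1 peptide mouse 1, a choice listed for every mouse, gave 5 members lower and 0 higher of 47 tested (Psma1, Psma5, Psmd8, Psmd13 and Psmd14) at an unadjusted p under 0.05, with 10% of all genes then under that threshold and 0 members passing adjustment.

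The level of some subunits ran with the mitochondrial share of the library, a relation looked for after the values were seen. Over the 8 mice, Psmd13 fell as the share rose (Pearson r = -0.95, exact permutation p = 0.000446, adjusted p = 0.0138 over 31 subunits). Spearman's rho of Psmd13 was -0.90 (exact permutation p = 0.00456, adjusted p = 0.141), r was -0.90 without the 2 mice farthest from the median share, and deviations from the group means gave -0.94. Of the 31 Pearson coefficients, 1 passed adjustment, and of the Spearman coefficients 0 did. Psma5 (r = -0.84), Psmb4 (r = -0.81), Psmd2 (r = -0.81), Psmd3 (r = -0.80), Psmc1 (r = -0.79) and Psma1 (r = -0.71) were also below -0.7, making 7 subunits or 22.6%, against 7.99% of all genes tested. Above 0.7 lay Psmb3 (r = 0.81) and Psmd1 (r = 0.79), 6.45% against 6.65% of all genes. Without the 2 farthest mice, AF1 peptide mouse 1 and Control mouse 4, the 7 negative coefficients lay between -0.72 and -0.90. Psmb2, Psmc3, Psmd8, Psmd11 and Psmd14, at -0.20 to -0.55 over 8 mice, then lay between -0.76 and -0.84. Which subunits pass -0.7 thus depends on those 2 mice, and the share of all genes was not computed without them. Psmd1 went to 0.55 and Psmb3 to 0.33, so the relation of Psmb3 rests on those 2 mice. Genes in 1 library are not independent, and what moves both measures was not tested.

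**Figure D4:**
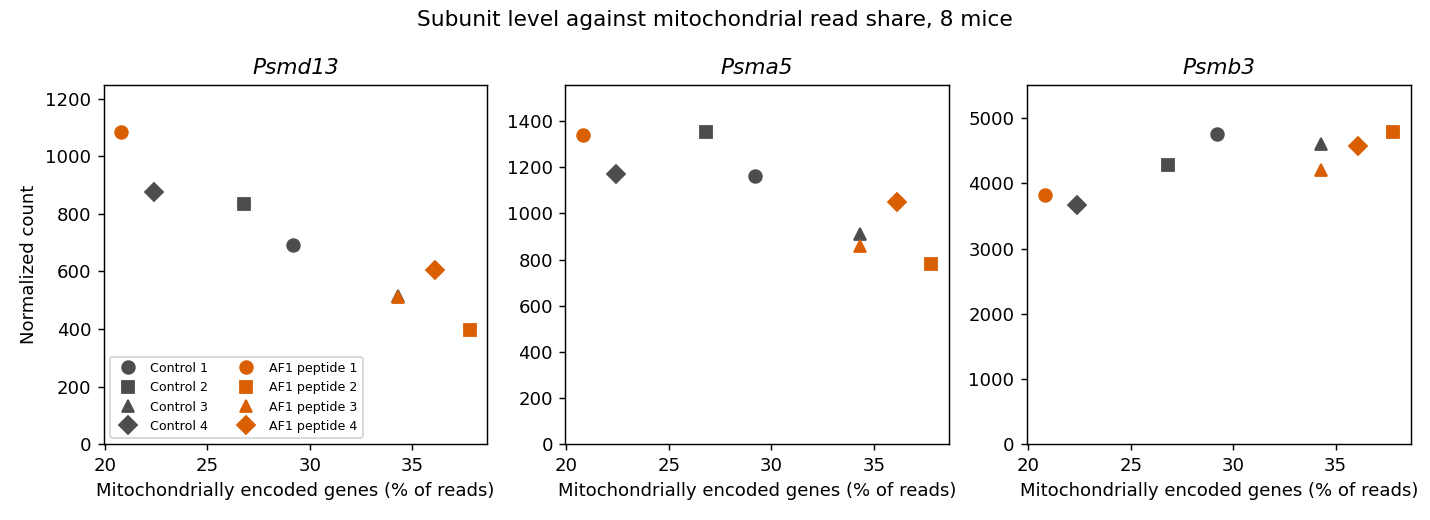
Normalized count (y axes, from 0) of Psmd13, Psma5 and Psmb3 against the percentage of reads from mitochondrially encoded genes (x axes), with 1 symbol per mouse. Psmd13 goes from 1085 at a share of 20.8% to 396 at 37.8%, Psma5 follows the same course less steeply, and Psmb3 runs the other way.

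Of the 17 members outside the particles, 0 passed the unadjusted threshold, against 6.19% of all genes tested. Their log2 differences ran from -0.20 to 0.35 with a median of -0.04, and 11 of the 17 intervals lay inside a 1.3-fold change. Psmd5, a chaperone of regulatory particle assembly, had 332, 354, 317 and 330 normalized counts in Control mice and 322, 314, 297 and 324 in AF1 peptide mice. Of the AF1 peptide mice of Psmd5, 2 lay below all Control mice, and the log2 difference was -0.08 with a standard error of 0.10. Psmg4, a chaperone gene of core assembly, had 382, 342, 460.5 and 406 in Control mice and 422, 442, 420.1 and 447 in AF1 peptide mice, with a log2 difference of 0.13 (standard error 0.11) and overlapping groups.

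Among activators, Psme4, which encodes the activator PA200, had 1289, 1274, 1187 and 1244 normalized counts in Control mice and 1151, 1092, 1027 and 1309 in AF1 peptide mice. AF1 peptide mice 1, 2 and 3 lay below all Control mice, and mouse 4 lay above them. The log2 difference was -0.13 with a standard error of 0.10 and an adjusted p of 0.799 in limma. Psmf1, the proteasome inhibitor PI31, had the smallest standard error of the members, with 929, 953, 907 and 929 in Control mice and 929, 888, 881 and 872 in AF1 peptide mice. AF1 peptide mice 2, 3 and 4 fell below all Control mice and mouse 1 did not, with a log2 difference of -0.06 (standard error 0.08). The other 4 activators had log2 differences between -0.10 and 0.07, and Psme2b and Psme2 share 69.3% and 28.3% of their 50-base stretches with other genes, including each other.

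The assembly factors Psmd9, Psmd10, Psmg1, Psmg2 and Psmg3, together with Psme3ip1, had log2 differences between -0.10 and 0.11. The remaining 3 members had few reads. Psma8, a core subunit known from testis, had 20.6, 25.6, 15.1 and 25.1 normalized counts in Control mice and 25.2, 18.3, 9.89 and 27.6 in AF1 peptide mice, and the groups overlapped. Psma5-ps had 11.5, 11.8, 7.57 and 10.9 in Control mice and 19.6, 7.31, 7.41 and 5.51 in AF1 peptide mice, with AF1 peptide mouse 1 above and the other three below the Control range. Psmc3ip, a meiotic recombination factor, had 24.7, 12.8, 10.8 and 16.7 in Control mice and 15.9, 27.4, 21.4 and 17.4 in AF1 peptide mice. At these counts the 95% intervals were wide, from -0.36 to 1.06 for Psmc3ip, from -0.93 to 0.61 for Psma8 and from -1.11 to 0.71 for Psma5-ps on the log2 scale.

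The inducible subunits Psmb9, Psmb10 and Psmb8 replace Psmb6, Psmb7 and Psmb5 in the immunoproteasome, and the comparison asks whether the balance of the 2 forms differed. Psmb10 was at 22%, 21.6%, 32.1% and 34.5% of the Psmb7 count in Control mice and at 42.5%, 29.5%, 41.0% and 35.0% in AF1 peptide mice. Of the AF1 peptide mice, 3 exceeded every Control mouse, and mouse 2 lay inside the Control range. The log2 ratio differed by 0.44 (exact two-sided permutation p = 0.114, adjusted p = 0.343 over 3 ratios), where the smallest p that 4 against 4 mice allow is 0.0286. Psmb8 was at 13.2%, 12%, 16.8% and 18.4% of Psmb5 in Control mice and at 14%, 16.5%, 17.2% and 18.8% in AF1 peptide mice, a log2 difference of 0.15 (exact permutation p = 0.371, adjusted p = 0.557) that lay between 0.052 and 0.257 when 1 mouse was left out. Psmb9 was at 6.8%, 8.4%, 9.7% and 11.2% of Psmb6 in Control mice and at 7.1%, 10.7%, 9.1% and 10.1% in AF1 peptide mice, a log2 difference of 0.05 (exact permutation p = 0.83, also after adjustment). In the last pair all AF1 peptide values lay inside the Control range. These ratios are of counts without length, so they are compared between mice and not between pairs.

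**Figure D5:**
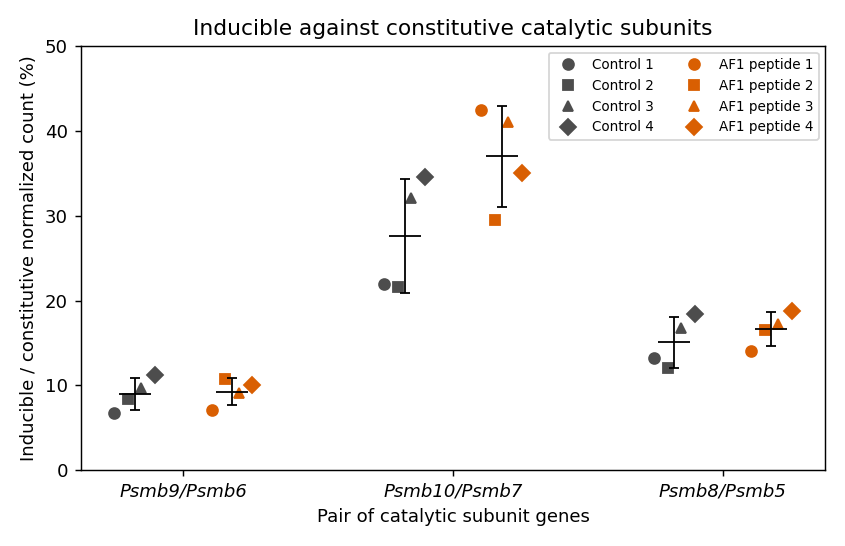
Normalized count of each inducible catalytic subunit gene as a percentage of its constitutive counterpart (y axis, from 0) for 3 gene pairs (x axis), with 1 symbol per mouse and lines for the mean and SD of 4 mice. In the Psmb10/Psmb7 pair 3 AF1 peptide mice lie above all Control mice, and in the other pairs the groups overlap broadly.

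Psmb10 itself had 740.0, 739.6, 902 and 979 normalized counts in Control mice and 1250, 868, 942 and 1038 in AF1 peptide mice. AF1 peptide mice 1 and 4 exceeded all Control mice, and the log2 difference was 0.28 with a standard error of 0.14 and an adjusted p of 0.763 in limma. The unadjusted limma p was 0.0684, and it fell to 0.0354 without AF1 peptide mouse 2 and to 0.0337 without Control mouse 4. Without AF1 peptide mouse 1 the log2 difference was 0.183. Psmb8 had 660.1, 557, 759 and 665 in Control mice and 510.4, 745, 746 and 886 in AF1 peptide mice. Psmb9 had 458, 487, 576 and 559 in Control mice and 372, 650.2, 508 and 658 in AF1 peptide mice. For Psmb8 and Psmb9, AF1 peptide mouse 1 was the lowest of the 8 mice, while for Psmb10 it was the highest. That mouse also had the lowest sum of the leukocyte and macrophage markers, although Cd3e of that list was highest in it. Whether these are linked was not tested. The log2 difference of Psmb8 was 0.11 with all mice and 0.267 without that mouse (unadjusted limma p of 0.0493), and that of Psmb9 was 0.04 and 0.215 (unadjusted limma p of 0.119).

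Of 28 further genes of the pathway, 1 was higher and 1 lower at an unadjusted p under 0.05 in limma, or 7.14% against 6.19% of all genes tested, and 0 passed adjustment. Ubqln4, a shuttle factor that carries ubiquitinated proteins to the proteasome, had 1034, 1083, 1191 and 1015 normalized counts in Control mice and 1286, 1242, 1373 and 1195 in AF1 peptide mice. All 4 AF1 peptide values lay above all Control values, with Control mouse 3 and AF1 peptide mouse 4 nearly touching. The log2 difference was 0.24 with a standard error of 0.09 and an adjusted p of 0.763 in limma, and with libraries scaled to equal totals it was 0.147 with an unadjusted p of 0.311. Txnl1, a thioredoxin-like protein bound to the regulatory particle, had 2508, 2537, 2273 and 2127 in Control mice and 1848, 2093, 1767 and 2206 in AF1 peptide mice. AF1 peptide mice 1, 2 and 3 lay below all Control mice and mouse 4 did not, with a log2 difference of -0.26 (standard error 0.11) and an adjusted p of 0.763 in limma. Without 1 of 3 mice for Ubqln4 (AF1 peptide mouse 3, Control mice 1 and 4) and 1 of 4 for Txnl1 (AF1 peptide mice 1 and 3, Control mice 1 and 2) the unadjusted p rose to between 0.0604 and 0.0922.

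The transcription factor genes Nfe2l1 and Nfe2l2 had log2 differences of 0.06 (adjusted p = 0.915 in limma) and -0.02 (adjusted p = 0.990 in limma). Adrm1 and Sem1, regulatory particle subunits with other symbol stems, had -0.10 and 0.04, and Pomp, which assembles the core, had 0.01. Over the 28 genes the median was -0.02 and the range -0.54 (Ubqln2, with 103 ± 8.45 and 74.3 ± 29.0 normalized counts) to 0.24.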

How the data were processed

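Members, roles and gene lists were chosen with earlier results of these data known. The authors used Trim Galore 0.6.7 for trimming, HISAT2 for alignment, SAMtools 1.17 for sorting and GenomicAlignments for counting. The submitters' processing notes name build mm39, and the annotation, the use of strand and the treatment of multiply matching reads are not given in the sources used here. The deposited values are a signal per gene, read counts divided by a size factor per library, and 100.0% of 172256 values came out as whole reads within 0.1. Each mouse was 1 library, and each read count carries counting error besides the spread between mice.

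Values were tested as log2(normalized count + 1) with limma 3.58.1 in R 4.3.3, with an intensity trend and no block, over genes with a mean of at least 10, which all 48 members passed. The call was an unadjusted p under 0.05, as in the study, with Benjamini-Hochberg adjustment beside it. On this scale the fold change of a low gene is understated. Ratios were tested by exact permutation over mice. The script was tested on simulated data.

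Named were members and pathway genes past the threshold, the smallest p in each role, members without overlap, the catalytic subunits and their inducible forms, and the highest and lowest level per kb in each particle. Transcript lengths and shared stretches came from GENCODE M21 on GRCm38, another build than the submitters'; no coordinates were converted. Promoters came from RefSeq. Alternatives were other pseudocounts, filters, scalings, variance models and thresholds, a replicate block, leaving out each mouse, and, on recovered reads, DESeq2 1.42.0 and edgeR 4.0.16. Paaf1 and Psmb11 were not analysed here.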

Additional observations from a re-analysis of the deposited data

Results flagged for a closer look

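In 54 groups of 4 mice, 3 held a mouse whose gap to its neighbour took a share of the group's range above Dixon's 95% critical value. Chance flags about 1 in 20 groups, 2.7 here. For Psmb7, AF1 peptide mouse 3 was low at 2296 normalized counts against 2938 to 2961 in the other three, a gap of 0.965 of the range. For Psmc5, Control mouse 4 was low at 2291 against 2855 to 2893, a gap of 0.936. For Psma5-ps, AF1 peptide mouse 1 was high at 19.6 against 5.51 to 7.41, a gap of 0.865.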

How the results depend on the processing

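The number of members called higher stayed at 0 under all alternatives. The number called lower was 1 in the main analysis, 2 with a replicate block, 0 with a 1.3-fold threshold added, 0 at an adjusted p under 0.05, and 0 to 5 when 1 mouse was left out (0 without AF1 peptide mouse 2 or Control mouse 2, 2 without Control mouse 3, 5 without AF1 peptide mouse 1). Psmd8 kept its direction and its unadjusted p under 0.05 under the other pseudocounts, filters, scalings and variance models, edgeR and DESeq2. Its log2 difference ranged from -0.316 to -0.194 when 1 mouse was left out. The medians of the core (-0.094 to 0.014) and regulatory particle (-0.077 to 0.024) crossed 0 when 1 mouse was left out, moving by less than the SD between mice.

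With libraries scaled to equal totals the median of all genes moved from -0.0083 to -0.0988. That common shift took Psmb9 to -0.048, Psmc5 to -0.020 and Psmd4 to -0.035, across 0. Leaving out 1 mouse reversed Psmb5 (-0.142 to 0.033), Psmb6 (-0.08 to 0.066), Psmb9 (-0.058 to 0.215), Psmc5 (-0.011 to 0.102), Psmd4 (-0.047 to 0.13), Psma8 (-0.33 to 0.133) and the log2 ratio Psmb9/Psmb6 (-0.082 to 0.171); the cause was not tested. The log2 ratio Psmb10/Psmb7 ranged from 0.339 to 0.564. Txnl1 had an unadjusted p of 0.0573 without the intensity trend.

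Mice of the same number deviated with correlations of 0.235, 0.024, 0.216 and -0.064, and the mouse that correlated best with Control mice 1 to 4 was number 1, 4, 3 and 1, so the numbers were not taken as pairs. With a replicate block the members called lower were Psmd8 and Psmd14.

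With 4 mice per group, the standard errors of the subunits (median 0.11 on the log2 scale) set the smallest difference that could be told from 0. Counts of genes sharing sequence, and levels per kb, depend on the counting and the transcript model.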
